A study of Homo sapiens with 10 samples.

Results

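The genes described here encode CTCF, its testis paralog and the cohesin machinery that works with it in folding chromosomes. They were taken by name as 10 protein-coding genes (CTCF, CTCFL, RAD21, SMC3, STAG1, NIPBL, WAPL, PDS5A, PDS5B and MAU2), out of 20033 protein-coding genes on the autosomes, X and Y in GENCODE release 44. Each gene was examined over its whole length with 10 kb added on both sides, 1.45 Mb of the hg38 genome in all, and its promoter was taken as 1000 bp on both sides of the start of its canonical transcript.

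CTCF and histone marks were mapped on the genome of HEK-293T cells, a human embryonic kidney line, when the level of CGGBP1, a protein that binds repeats and CGG triplets, was changed. Cells of the CT group carried a non-targeting shRNA, cells of the KD group an shRNA against CGGBP1, and cells of the OE group a lentivirus that overexpressed CGGBP1, and puromycin at 10 µg/ml was used to select the shRNA cells. CTCF was precipitated from all 3 groups, H3K4me3, H3K9me3 and H3K27me3 from CT and KD, and an input library was sequenced beside them, from which of the 3 groups the labels do not say. There was 1 library for each combination, so differences between conditions have no replicate check and no test was made.

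Cohesin is a ring that holds DNA. SMC3 and RAD21 are part of the ring, STAG1 is a subunit that sits on it, and NIPBL with MAU2 loads it and drives the extrusion of DNA loops. WAPL, helped by PDS5A or PDS5B, opens the ring and releases it. CTCF is a zinc-finger protein that binds a long motif with a direction, and cohesin sliding along DNA stops where it meets CTCF in the right orientation. CTCFL, also called BORIS, has similar zinc fingers and is normally made in the male germ line.

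Each library was available as a list of peaks, regions called by MACS2 as enriched in reads. For CTCF there were lists made from reads mapped to the whole genome (unmasked) and lists made from reads mapped to a genome with its repeats hidden (masked). The unmasked CTCF list of CT had 42978 peaks (median width 285 bp), that of KD 47632 (291 bp) and that of OE 47216 (274 bp). The masked ones held 26635, 24418 and 21071 peaks. The CT lists of H3K4me3, H3K9me3 and H3K27me3 held 76814, 14546 and 6003 peaks, and their KD lists 81932, 8356 and 4804. The number of reads behind a peak was not part of the lists used here, so precision is known for counts of peaks alone, and the 95% intervals below (exact Clopper-Pearson) cover counting error only. A peak missing from a list lay below that list's threshold, which is not the same as no binding. The unmasked lists may not have been called alike, since the labels give a p threshold of 0.0025 for CT and KD but 0.005 for OE. The methods name the looser threshold for every unmasked list, and which was used could not be settled. As a check of the cell type, H3K4me3 lay at the promoters of 5 of 5 genes of HEK-293T cells (GAPDH, ACTB, VIM, PAX2 and LHX1) in both CT and KD, and at 0 of 9 promoters of liver, blood, heart, mature kidney and germ cell genes. Of all protein-coding genes, 69.7% carried H3K4me3 at the promoter in CT and 70.4% in KD. The 5 of 5 alone therefore says little about the cell type. CGGBP1 transcript or protein is not measured by these lists, so the knockdown and the overexpression were not checked here.

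At the start sites, 9 of the 10 genes carried H3K4me3, the mark of active promoters, in CT and the same 9 in KD. Over all protein-coding genes the share was 69.7% in CT and 70.4% in KD. CTCFL was the gene without it. CTCF peaks were rarer at promoters. They lay at STAG1 and PDS5B in CT and at STAG1 alone in KD and in OE, against 7.04%, 11.1% and 9.7% of all genes, so 2, 1 and 1 of 10 genes were near the background. In the masked lists STAG1 was the member with a promoter peak in CT, KD and OE, and the shares of all genes were 6.77%, 7.94% and 6.48%. H3K9me3, found in constitutive heterochromatin, was at 0 of 10 promoters in CT and KD, with 0.983% and 0.574% of all genes marked. H3K27me3, the Polycomb mark, was likewise at 0 of 10, with 0.334% and 0.0649% of all genes marked. Antibodies are named in opposite ways for these 2 marks in the labels and in the methods, and the lists are called here by their titles. No input peak fell in any of the 10 windows.

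The count of members with a promoter peak of CTCF depended on how a promoter was drawn. With every annotated start in place of the canonical one it became 5 in CT and KD and 4 in OE, where 14.6%, 20.6% and 18.8% of all genes had a peak. The members had from 4 (WAPL) to 18 (RAD21) annotated starts. A gene with more starts has more places for a peak, and these shares were not matched for that number. With 2000 bp on both sides it was 3 in CT (STAG1, PDS5A and PDS5B), 4 in KD (CTCF, STAG1, WAPL and PDS5A) and 2 in OE (STAG1 and PDS5A), where the shares of all genes were 10.8%, 16.2% and 14.6%.

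**Figure D1:**
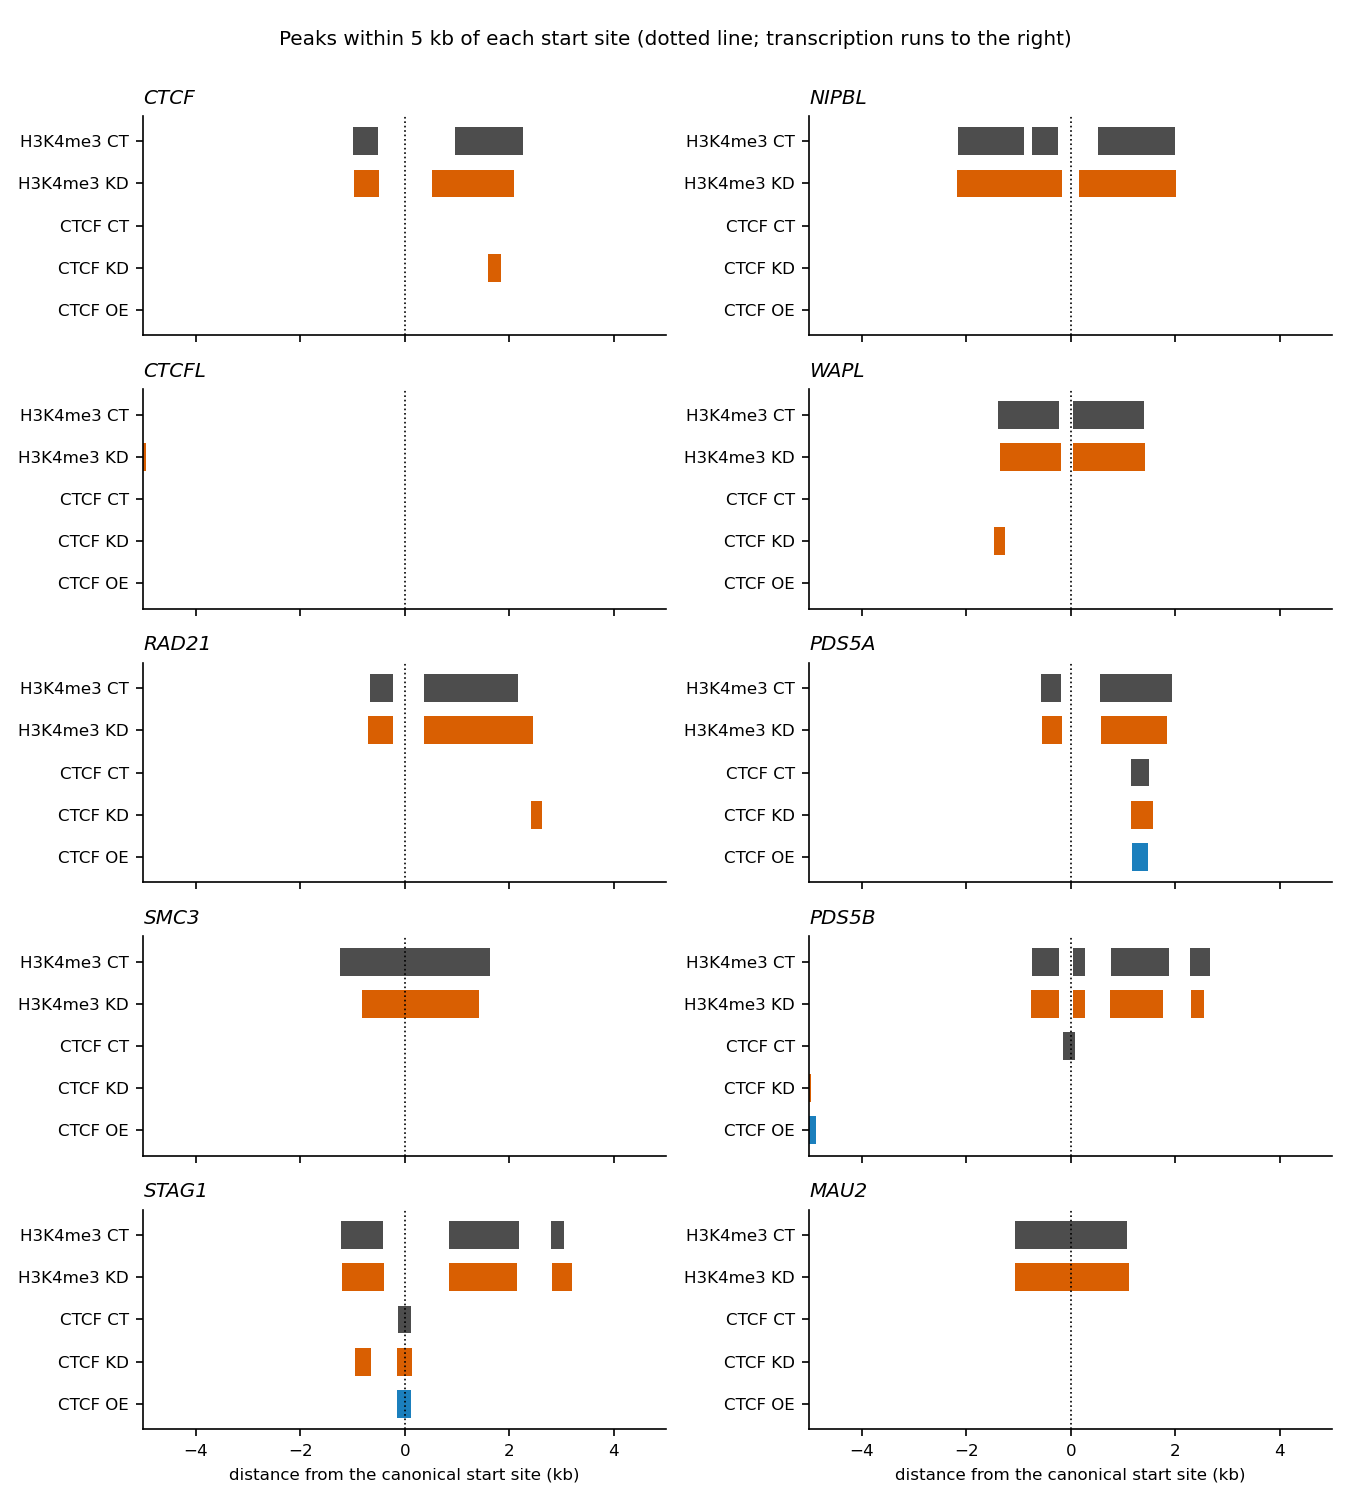
Peaks of H3K4me3 (CT and KD) and unmasked CTCF (CT, KD and OE) within 5 kb of the canonical start site of each of the 10 genes, with the distance from the start in kb on the horizontal axis and a bar for each peak. H3K4me3 flanks the start at 7 genes and covers it at SMC3 and MAU2, and CTCF sits over the start of STAG1 in all 3 conditions and over that of PDS5B in CT.

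The map of the start sites shows the shape of the mark as well as its presence. At SMC3 and MAU2 the start itself was inside an H3K4me3 peak in CT and KD. At the other 7 marked genes it lay in a gap between peaks. Of all genes with H3K4me3 at the promoter, 58.6% in CT and 61.4% in KD had a peak over the start. The gap was widest at CTCF in CT (1473 bp) and at STAG1 in KD (1243 bp) and narrowest at WAPL (265 bp in CT and 238 bp in KD). Its median over the 7 genes was 755 bp in CT and 608 bp in KD, beside 440 bp over 4900 genes and 399 bp over 4665 genes with a gap.

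Over the whole windows, the unmasked lists had 25 CTCF peaks for CT and 28 each for KD and OE, and the masked lists had 22, 18 and 18. Per 100 kb this was 1.72, 1.93 and 1.93 peaks unmasked, against 1.45, 1.69 and 1.65 over the merged windows of all protein-coding genes. The masked densities were 1.52, 1.24 and 1.24 against 1.02, 1.01 and 0.863. H3K4me3 had 41 peaks in CT and 44 in KD, at 2.83 and 3.03 per 100 kb, below the 3.32 and 3.51 of all windows. H3K9me3 had 6 peaks in CT and 2 in KD, and H3K27me3 had 0 in both, where its density over all windows was itself low, 0.0734 per 100 kb in CT and 0.04 in KD. The density varied among the genes. In CT the density of unmasked CTCF peaks went from 0 at RAD21 and WAPL and 0.571 at PDS5A to 4.03 at CTCFL. When the comparison was limited to the widest 20000 peaks of each unmasked CTCF list, the windows held 9 CT, 11 KD and 13 OE peaks, or 0.62, 0.758 and 0.896 per 100 kb beside 0.697, 0.747 and 0.73 over all windows.

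**Figure D2:**
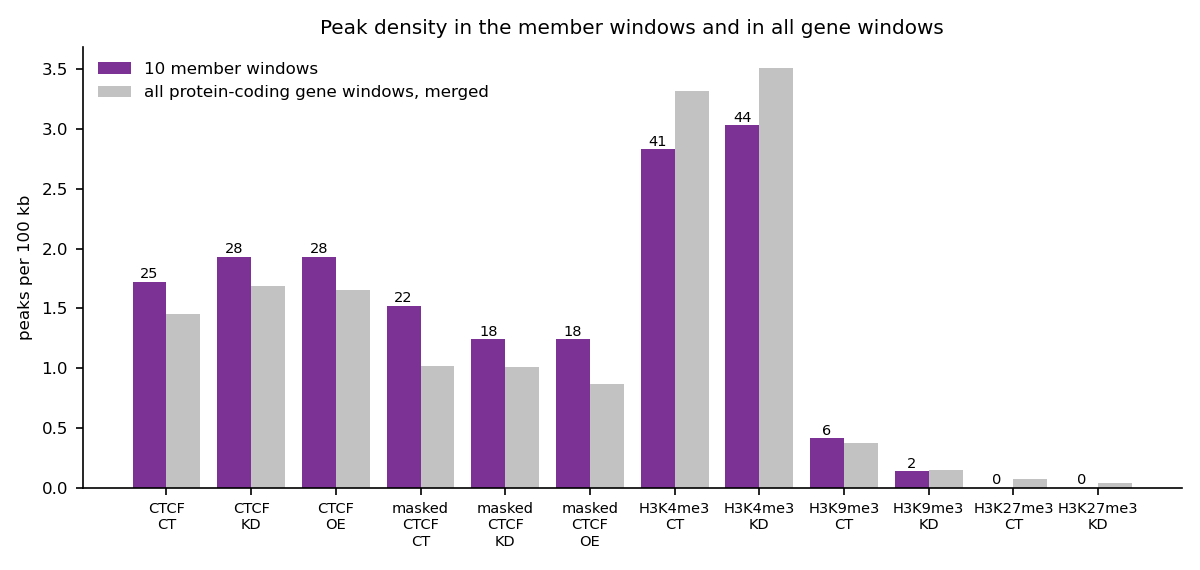
Peaks per 100 kb in the windows of the 10 genes (purple, with the number of peaks above each bar) and in the merged windows of all protein-coding genes (grey), for the 12 lists of CTCF and histone marks. CTCF density is above that of all windows in each of the 6 CTCF lists and H3K4me3 density is below it in CT and KD, with H3K27me3 at 0 in the 10 windows.

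CTCF, the gene for the protein precipitated, lies at chr16:67562467-67639177 on the forward strand and spans 76.7 kb. No CTCF list held a peak within 1000 bp of its start. H3K4me3 flanked the start on both sides, and the share of the promoter covered by it was 26.2% in CT and 48.7% in KD, with the peak in the first intron beginning closer to the start in KD. An unmasked KD peak lay in the first part of the gene at +1.716 kb, inside that H3K4me3 peak, and another at +37.34 kb in an intron. Both were also in the masked KD list, had no match to the CTCF matrix, and were in none of the lists from CT or OE. These were chosen for description after their positions were seen. The site held by all 6 CTCF lists was beyond the gene's end, at chr16:67644639-67644937, 82.26 kb from the start of CTCF and centred at -356 bp from the start of the neighbouring gene CARMIL2, with H3K4me3 over it in CT and KD. The CTCF gene's promoter, compared over the 13 lists by the share of its bases covered, was most like those of GPR27, CCSER1 and LDLRAD4, with mean absolute differences of 0.131, 0.146 and 0.15 percentage points. H3K4me3 was the mark behind this likeness, since the other lists covered none of these promoters.

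CTCFL, the germ line paralog (chr20:57495966-57525652, reverse strand), had no peak of any list at its promoter, a pattern shared by 27.6% of all genes. Its promoter was GC-rich (64.9% G and C), but its ratio of observed to expected CpG was 0.327, the lowest of the 10 genes, the others lying between 0.696 and 0.978. The gene nevertheless held a CTCF site. At chr20:57514251-57514622, +10.7 kb from the start and over a coding exon and intron, all 6 CTCF lists had a peak. A second site, at chr20:57495171-57495576 in the flank beyond the gene's end and centred at -7 bp from the annotated start of HMGB1P1, was in the unmasked KD and OE lists and in all 3 masked lists, with H3K4me3 over it in CT and KD. The matches to the CTCF matrix under the sites of these first genes are shown with 15 bases on both sides, read from hg38 on the strand of the match, with the match in capitals. They lie at chr16:67644837-67644880 (reverse), chr20:57514412-57514455 (forward) and chr20:57495386-57495429 (reverse).
CTCF, beyond the gene's end, all 6 lists: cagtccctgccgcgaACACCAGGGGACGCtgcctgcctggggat
CTCFL, within the gene, all 6 lists: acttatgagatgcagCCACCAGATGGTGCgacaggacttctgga
CTCFL, beyond the gene's end, unmasked KD and OE and all masked lists: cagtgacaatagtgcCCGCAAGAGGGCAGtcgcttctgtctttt

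The matrix has 14 columns and was learned here from 12859 masked CT peaks that overlap masked KD and OE peaks, and a match is scored on both strands at p below 0.0001. It is a permissive description. Of 4830 tiles of 300 bp laid over the 10 windows 15.3% held a match, as did 37.5% of 35116 RefSeq promoters of 300 bp, which are richer in G and C. Sites found in all lists are of the kind the matrix was learned from, so the presence of a match under them is partly a result of its making.

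STAG1, the subunit found on part of the cohesin rings, is the longest of the genes (chr3:136336236-136752403, reverse strand, 416 kb) and the member with CTCF on its promoter in every CTCF list. The peak at its start spanned 265 bp in CT (136752250 to 136752514). The KD peak was slightly wider (282 bp, 136752237 to 136752518), the OE peak narrower (252 bp, 136752266 to 136752517), and the masked peaks were 343, 267 and 245 bp wide. It covered the first bases of the 5′ UTR and the DNA just before the start, and filled part of a gap of 1269 bp between H3K4me3 peaks in CT and 1243 bp in KD. The combination of H3K4me3 in both lists with CTCF in all 6 was found at 2.87% of all promoters. The promoter is given below from RefSeq (GRCh38.p14, chr3:136752329-136752628, reverse strand, 250 bases before to 50 bases after the start), with the 3 matches to the CTCF matrix in capitals, which overlap in places. It is shown because it was the member promoter with CTCF in all conditions.
STAG1 promoter: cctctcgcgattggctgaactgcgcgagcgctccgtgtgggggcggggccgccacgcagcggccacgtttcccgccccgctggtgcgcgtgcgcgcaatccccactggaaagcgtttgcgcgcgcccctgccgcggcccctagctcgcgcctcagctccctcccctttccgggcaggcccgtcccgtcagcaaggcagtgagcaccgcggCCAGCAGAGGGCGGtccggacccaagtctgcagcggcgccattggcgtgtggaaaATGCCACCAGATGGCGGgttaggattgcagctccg

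A second KD peak lay at -0.799 kb from the start of STAG1, inside the upstream H3K4me3 peak and without a match, and another at -6.22 kb, where the masked CT list also had a peak. Within the gene, all 6 lists held 2 intronic sites, at +206.6 kb (chr3:136545616-136545973) and +360.6 kb (chr3:136391672-136391984). Most of the other sites in this gene were in 1 list. Of 14 unmasked sites in its window, 4 were in CT only, 2 in KD only, 4 in OE only and 1 in KD and OE. The match at the second of the intronic sites common to all 6 lists (chr3:136391784-136391827, forward) is shown as an example, again in capitals.
STAG1 +360.6 kb, all 6 lists: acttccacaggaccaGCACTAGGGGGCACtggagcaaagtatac

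SMC3, an ATPase arm of the ring (chr10:110567684-110606048, forward strand), had a single H3K4me3 peak over its start, 2858 bp wide in CT and 2239 bp in KD. Its intronic site at +33.02 kb (chr10:110600578-110600860) was in the 3 unmasked lists and in none of the masked ones, and no base of it was in a 24-base word that occurs 10 times or more in the genome. A site beyond its end, at +42.76 kb (chr10:110610279-110610640), was in KD and OE in both kinds of list, with H3K4me3 over it in CT and KD. RAD21, the kleisin that closes the ring, had no unmasked CTCF peak in CT. In KD a peak at +2.528 kb, chosen after its position was seen, touched the downstream H3K4me3 peak of its start and had no match, and a site at +23.43 kb with a match was in KD and OE. The promoter of RAD21 had 51.6% G and C, the lowest of the 10, with H3K4me3 on both sides of its start and a gap of 604 bp in CT and 608 bp in KD.

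NIPBL, the loader, spans 190 kb (chr5:36876769-37066413, forward strand). All 6 lists had a site upstream of it at -6.181 kb (chr5:36870367-36870809). The 3 unmasked lists had another at +68.02 kb (chr5:36944640-36944932), absent from the masked lists, and a site at +129.4 kb (chr5:37005938-37006380), over a coding exon and intron, was in unmasked KD and OE and in all masked lists, CT included. A CT-only peak with a match at +29.17 kb had 91.7% of its bases repeated. The gap in H3K4me3 at its start was 759 bp in CT and 325 bp in KD, and 54.2% of the promoter was covered in CT against 83.8% in KD. MAU2, the partner of NIPBL (chr19:19320829-19358754, forward strand), had no CTCF peak at its canonical start, which was covered by H3K4me3 over the whole promoter in CT and KD. It had sites in all 6 lists at +22.11 kb (chr19:19342765-19343114), over a coding exon and intron, and at +46.21 kb (chr19:19366759-19367326) beyond its end, and a site in KD and OE at +40.42 kb (chr19:19361021-19361477) that was in no masked list and had 30.2% of its bases repeated. The sequences set a site of all lists beside those that the unmasked CT list lacked, at chr5:36870617-36870660, chr5:37006114-37006157 and chr19:19361212-19361255, each on the reverse strand.
NIPBL -6.181 kb, all 6 lists: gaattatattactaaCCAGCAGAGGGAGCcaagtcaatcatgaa
NIPBL +129.4 kb, unmasked KD and OE and all masked lists: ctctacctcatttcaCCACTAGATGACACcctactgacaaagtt
MAU2 +40.42 kb, unmasked KD and OE: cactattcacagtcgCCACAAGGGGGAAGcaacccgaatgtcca

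WAPL, which releases cohesin (chr10:86435256-86521792, reverse strand), had the fewest CTCF peaks. Its window of 107 kb held 1 peak over the 6 CTCF lists, in unmasked KD at -1.365 kb, over the edge of the upstream H3K4me3 peak and without a match. It was named after its position was seen. PDS5A (chr4:39822863-39977956, reverse strand) had 1 site, held by all 6 lists, at +1.357 kb (chr4:39976344-39976764) inside the downstream H3K4me3 peak. This site was just outside the promoter as drawn here, and 155 kb of gene had no other CTCF peak.

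PDS5B (chr13:32586452-32778019, forward strand) had, like STAG1, 3 sites common to all 6 lists, here in its introns at +53.13 kb (chr13:32639288-32639879), +64.46 kb (chr13:32650734-32651086) and +82.77 kb (chr13:32669005-32669442). H3K4me3 overlapped the first and second of these in CT and KD. At -5.072 kb (chr13:32581187-32581573) a site was in unmasked KD and OE and in all masked lists. At the start itself, the unmasked CT list had a peak from 32586302 to 32586530 (229 bp), and no other CTCF list had a peak within 1000 bp. This combination with H3K4me3 in CT and KD was found at 0.899% of all promoters. The promoter from RefSeq (GRCh38.p14, chr13:32586202-32586501, forward strand) is given with its 2 matches in capitals. It is where the unmasked CT list differed from those of KD and OE at a member's start, a difference that the masked lists did not show. The match of the upstream site (chr13:32581361-32581404, reverse strand) follows it.
PDS5B promoter: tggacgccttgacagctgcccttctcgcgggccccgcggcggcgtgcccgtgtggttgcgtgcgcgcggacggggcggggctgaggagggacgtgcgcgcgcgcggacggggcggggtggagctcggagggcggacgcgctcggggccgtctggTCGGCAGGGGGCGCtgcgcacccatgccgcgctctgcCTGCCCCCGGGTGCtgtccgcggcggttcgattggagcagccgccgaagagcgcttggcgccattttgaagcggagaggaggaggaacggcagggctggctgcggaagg
PDS5B -5.072 kb, unmasked KD and OE and all masked lists: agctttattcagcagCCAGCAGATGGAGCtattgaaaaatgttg

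**Figure D3:**
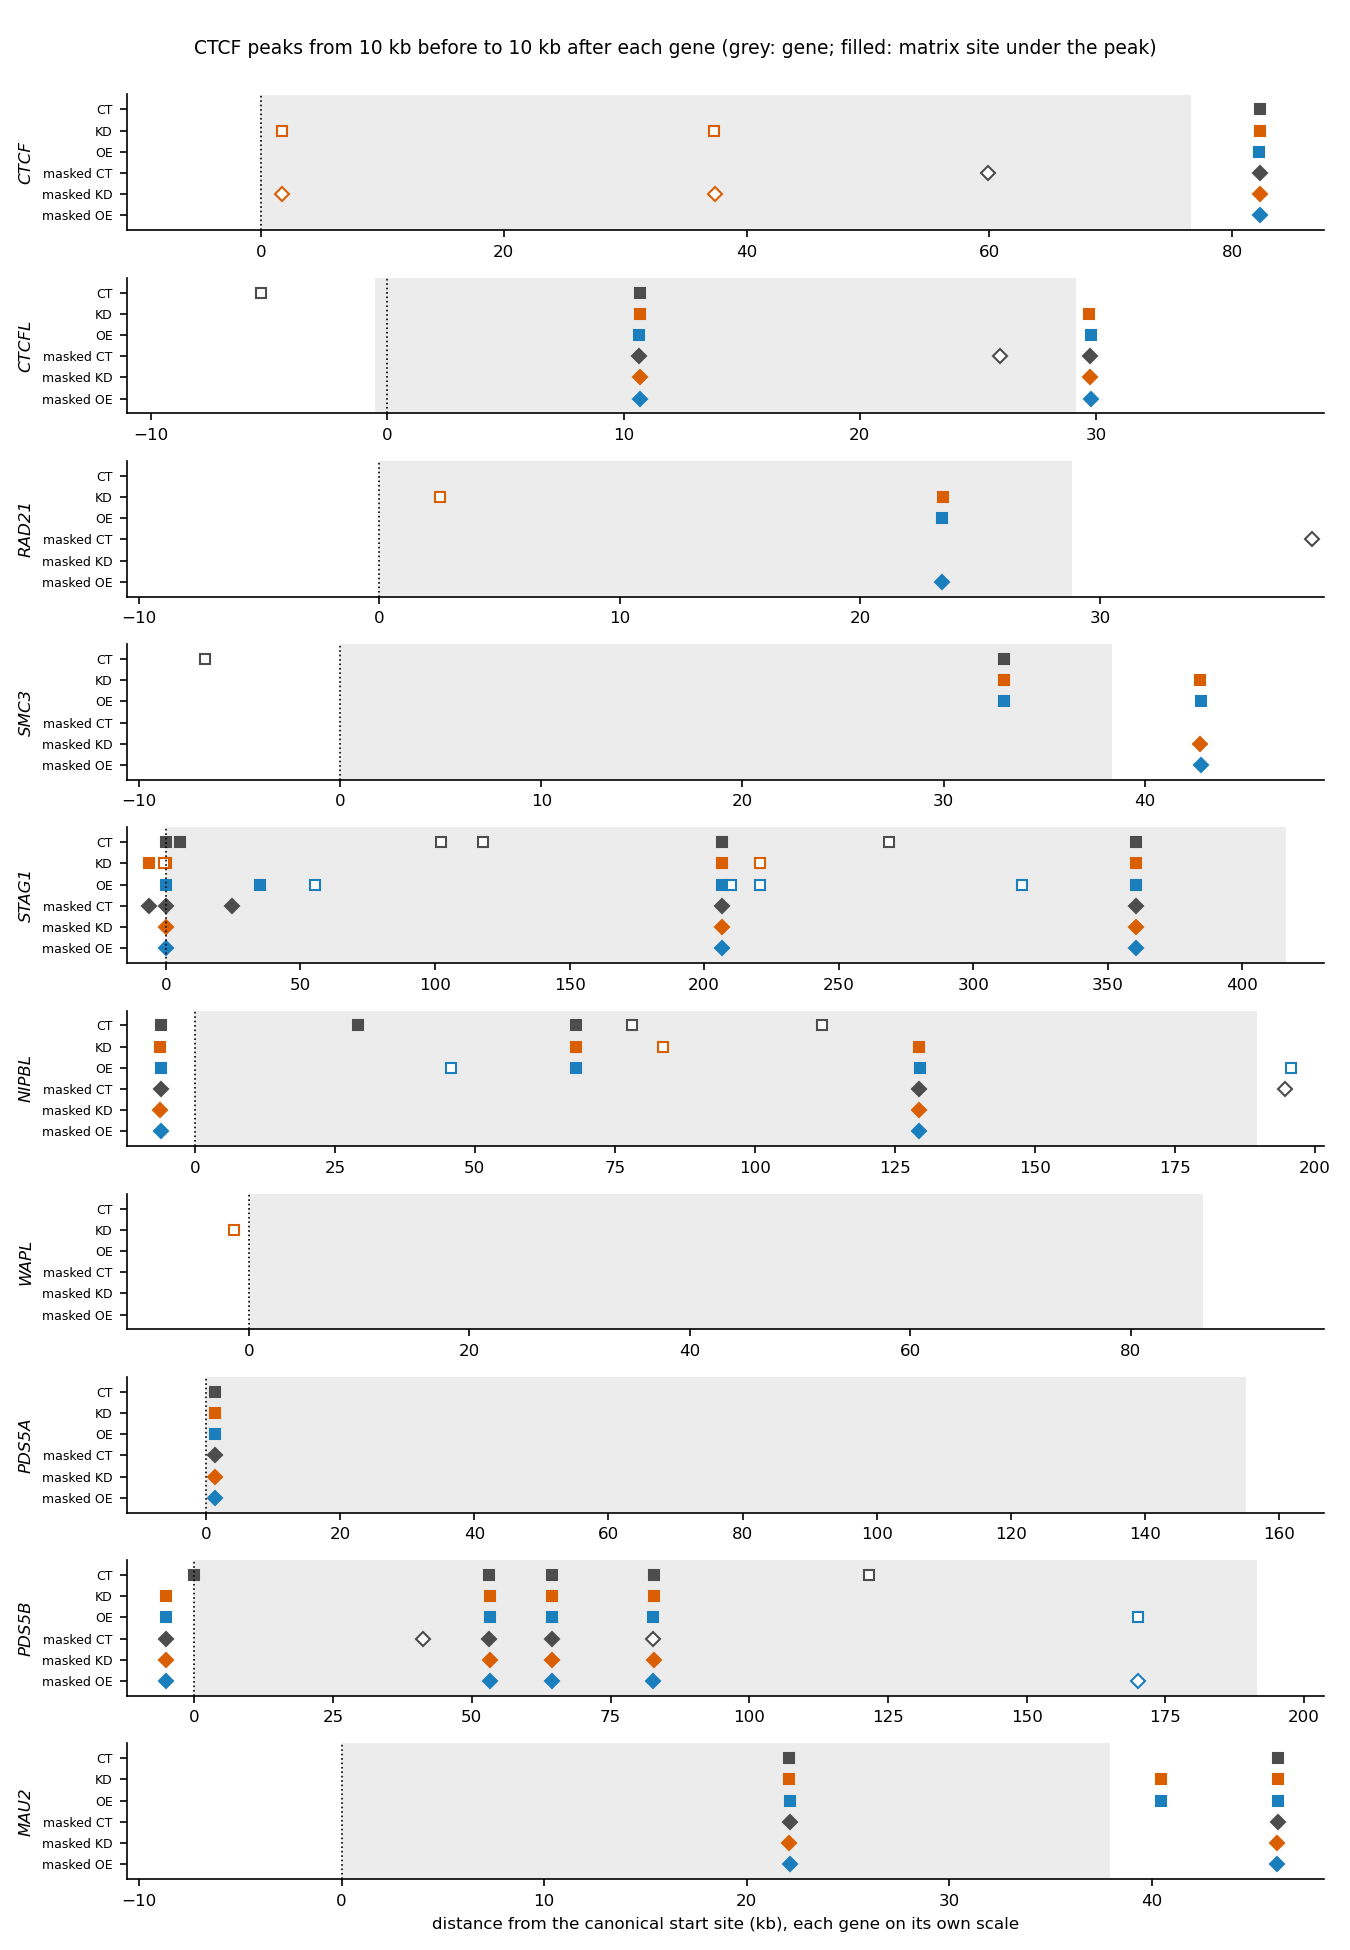
CTCF peaks along each of the 10 genes, with the distance from the canonical start in kb on the horizontal axis, a row for each of the 6 CTCF lists and a marker at the centre of each peak (squares unmasked, diamonds masked, filled where the peak held a match to the CTCF matrix). Grey marks the gene. Columns of 6 markers are sites common to all lists, filled except for masked CT at +82.77 kb of PDS5B, and most markers that stand alone are open.

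Matched to RefSeq promoters by symbol, 9 of the 10 genes had an entry. The promoters of STAG1 and PDS5B were not the only ones with matches. CTCF, NIPBL and PDS5A had 2 matches each and SMC3 and MAU2 1 each within the same 300 bases, and WAPL had 0. CTCFL had 3 entries, with 2 matches at the canonical start, 6 at a start upstream of it and 0 at a start downstream. No CTCF list had a peak over the entries of these 7 genes.

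Merged where they overlapped, the unmasked CTCF peaks of the windows formed 46 sites. Of these 14 (30.4%, 95% interval 17.7 to 45.8) were in CT, KD and OE, against 23.2% of 44069 sites over the windows of all genes. CT only took 11 sites (23.9%), against 22.5% of all sites. KD and OE without CT took 7 (15.2%, 6.34 to 28.9), against 14.1%, while KD only and OE only took 7 each, against 17.9% and 18.2%. The 2 remaining classes, CT with KD alone and CT with OE alone, had 0 sites and were also rare over all windows, at 2.85% and 1.23%. The members' shares of unmasked sites thus lay near those of all genes in each class. The masked peaks formed 27 sites, and 15 of these (55.6%, 35.3 to 74.5) were in CT, KD and OE, against 35.3% of all masked sites. KD and OE without CT took 1 (3.7%, 0.0937 to 19), against 16.2%, and CT only took 7 (25.9%), against 27.3%. KD only and OE only took 2 each (7.41%), against 11.2% and 4.95%. Counted by list, 14 of 25 CT peaks (56%) overlapped a KD peak and 14 of 25 an OE peak, where the shares over all windows were 52.3% and 49.1%. From the other side 14 of 28 KD peaks (50%, all windows 45%) and 14 of 28 OE peaks (all windows 43.1%) overlapped a CT peak. Between KD and OE the overlap was 21 of 28 peaks in both directions (75%, 55.1 to 89.3), against 64.2% and 65.7% over all windows. These shares were lower among the widest 20000 peaks of each list, 33.3% for CT in KD and CT in OE, 27.3% for KD in CT, 23.1% for OE in CT, 54.5% for KD in OE and 46.2% for OE in KD. With the same limit the shares over all windows were lower too, 30.2% for CT in KD, 29% for CT in OE, 28.2% for KD in CT, 27.7% for OE in CT, 49.6% for KD in OE and 50.7% for OE in KD, close to those of the members.

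**Figure D4:**
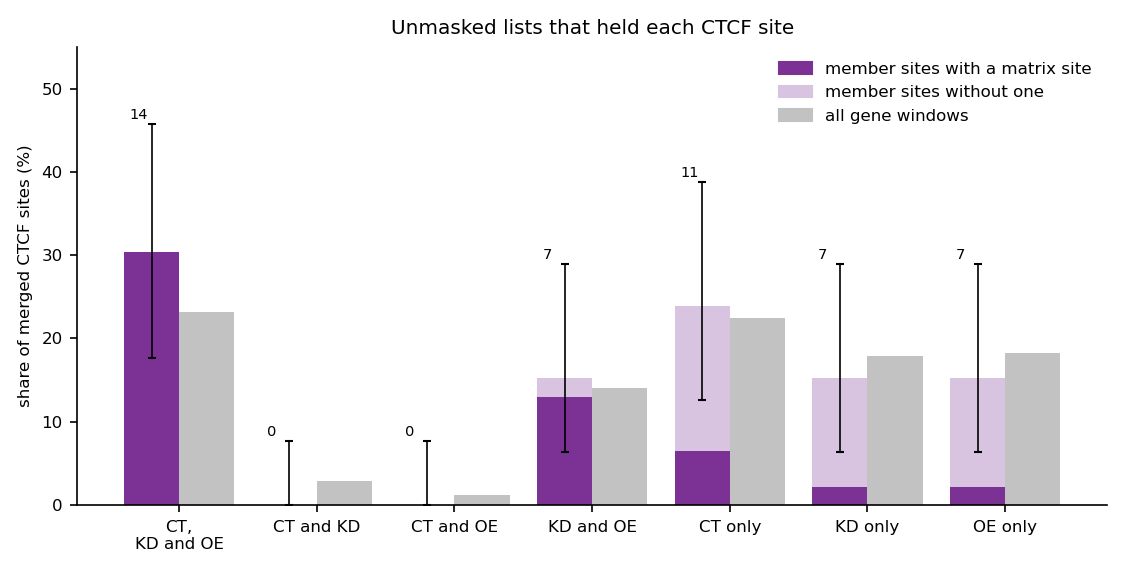
Share of merged unmasked CTCF sites, in %, by the conditions whose lists held them, for the 46 sites of the 10 windows (purple, with the number of sites above each bar and the exact 95% interval) and for the 44069 sites of all gene windows (grey). The dark part of a bar is the sites with a match to the CTCF matrix, all 14 in CT, KD and OE and 6 of 7 in KD and OE, but 3 of 11 in CT only. The matrix was itself learned from masked peaks common to CT, KD and OE.

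Sites differed by class in what lay beneath them. All 14 sites common to the 3 conditions had a match to the matrix (interval 76.8 to 100), as did 6 of the 7 in KD and OE. The matrix was learned from masked peaks common to the 3 conditions. Since 12 of these 14 sites and 3 of these 7 were in all 3 masked lists, their matches are partly a result of how the matrix was made. Of the 25 sites in a single list 5 had a match (20%, 6.83 to 40.7), namely 3 of 11 in CT, 1 of 7 in KD and 1 of 7 in OE. Over all gene windows a match lay under 93% of the sites in all 3 conditions, 91.6% of those in KD and OE and 26.7% of those in a single list (17.1% for CT, 43.9% for KD and 21.5% for OE). Repeated DNA, counted as bases in 24-base words that occur at least 10 times in the genome, made up 0.608% of the bases of the common sites and 30.7% of those of CT-only sites, beside 28.2% of all bases of the windows. It was 5.82% at KD-only, 13.8% at OE-only and 15.9% at KD and OE sites. These shares rested on few sites, since a repeated base was present in 5 of the 11 CT-only sites, 3 of 7 KD-only, 1 of 7 OE-only and 2 of 7 KD and OE sites. Over all gene windows the repeated share was 8.19% at common sites, 29.6% at CT-only, 11.4% at KD-only, 12.7% at OE-only and 5.26% at KD and OE sites. By list, 17 of 25 CT peaks (68%), 21 of 28 KD peaks (75%) and 21 of 28 OE peaks (75%) had a match, with overlapping intervals, and over all gene windows 56.1%, 76.4% and 68.5% did. The share of repeated bases was 13.6% for CT, 5.27% for KD and 7.47% for OE, beside 19.3%, 8.47% and 8.67% for the peaks of all gene windows.

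The masked lists held some of the sites that unmasked CT lacked. Of the 7 sites in unmasked KD and OE and not in unmasked CT, 3 were in all 3 masked lists (CTCFL beyond its end, NIPBL +129.4 kb and PDS5B -5.072 kb), so masked CT had a peak there, against 18.2% of that class over all gene windows. Every masked KD peak (18 of 18) and masked OE peak (18 of 18) of the windows overlapped an unmasked peak of its own condition, while 12 of 22 masked CT peaks did (54.5%, 32.2 to 75.6), and over all windows the shares were 95.1%, 92.8% and 60.8%. The masked CT list had 36.8% of its peaks at its narrowest width of 212 bp, and 9 of its 22 in the windows. Its peaks at the CTCFL and NIPBL sites just named were among these 9, and that at PDS5B was 228 bp wide. Conversely, none of the 11 unmasked CT-only sites was in a masked list, nor were 2 of the 14 sites common to the unmasked lists, at SMC3 and NIPBL. Over all windows 84.7% of the CT-only sites and 18.6% of the common sites were in no masked list.

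The CTCF matrix has a direction. At 11 of the 14 common sites (78.6%, 49.2 to 95.3) the best match lay on the strand opposite to the gene, and at 3, the start of STAG1, the site of PDS5A and the far site of MAU2, on the same strand. Over all gene windows 48.4% of 12413 such pairs of site and gene were opposite. This count was added after the sites had been seen, and sites of the same gene are not independent of each other.

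H3K4me3 within 5 kb of the start was compared between CT and KD by the bases its peaks covered. At NIPBL it was 3228 bp in CT and 3862 bp in KD, a difference of 634 bp, and at SMC3 it was 2858 bp and 2239 bp, a difference of -619 bp. Both were outside the range from the 5th to the 95th percentile (-273 to 344 bp) of 15455 genes with the mark in CT or KD, and 99.2% and 0.304% of those genes had a smaller difference. RAD21 had 2227 bp in CT and 2557 bp in KD, and CTCF 1788 bp and 2074 bp. These were inside the range, with 94.5% and 92.8% of genes below. The other genes differed by -172 to 136 bp. CTCFL had 0 bp in CT and 52 bp in KD, the edge of a KD peak centred at -5.077 kb. CT had an overlapping peak, centred at -5.128 kb, that lay just outside the 5 kb. The count was higher in KD for 6 genes, CTCFL included, and lower for 4. The median difference was 45 bp beside 4 bp over all marked genes, of which 51.4% were higher in KD. The median coverage of the 10 genes, 2222 bp in CT and 2206 bp in KD, was above that of all marked genes, 1742 and 1747 bp. Within the windows 34 of 41 CT peaks (82.9%) overlapped a KD peak and 33 of 44 KD peaks (75%) a CT peak, against 87.9% and 83% over all windows.

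**Figure D5:**
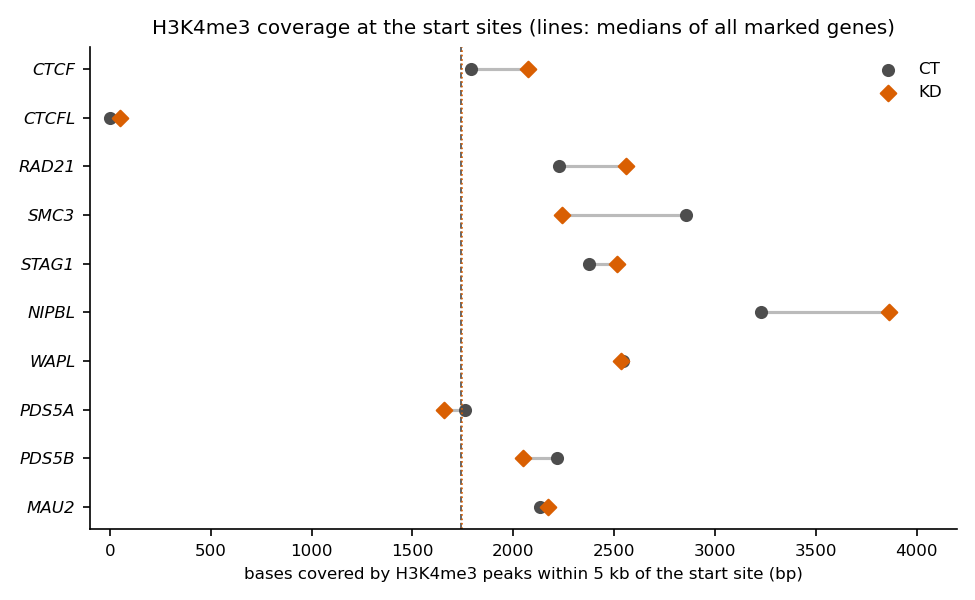
Bases covered by H3K4me3 peaks within 5 kb of the start of each gene, in bp, in CT (grey circles) and KD (orange diamonds), with the medians of 15455 marked genes as vertical lines. NIPBL (634 bp) and SMC3 (-619 bp) show the largest differences between KD and CT among the 10 genes, in opposite directions, and CTCFL is at or near 0.

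H3K9me3 was sparse. The 6 CT peaks lay at CTCFL (upstream), SMC3, STAG1, WAPL, PDS5A and PDS5B (introns), and 5 of the 6 were at the narrowest width of that list, 162 bp, as were 36.1% of its peaks. The 2 KD peaks lay in introns of STAG1 and PDS5B, at other places than those of CT. Over all windows the share of H3K9me3 peaks with an overlap in the other condition was 15.3% for CT and 38.2% for KD, and both shares lay within the intervals of 0 of 6 (0 to 45.9) and 0 of 2 (0 to 84.2). The CT peak in STAG1, at +220.7 kb in wholly repeated DNA, overlapped a CTCF peak found in KD and OE, which had no match and was chosen after its position was seen. Over all gene windows H3K9me3 had 0.373 peaks per 100 kb in CT and 0.149 in KD, so the smaller number in KD was not particular to these genes.

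Of 31 related genes from a fixed list, 30 had H3K4me3 at the promoter in both CT and KD (96.8%). The share of all genes was 69.7% in CT and 70.4% in KD. Unmasked CTCF was at 2 promoters in CT (6.45%), 4 in KD (12.9%) and 3 in OE (9.68%), near the 7.04%, 11.1% and 9.7% of all genes, and at 7 in any of these lists (22.6%), where 15.5% of all genes had a peak in any of them. In the 9 other genes of mitotic cohesin, ESCO1, an acetyltransferase that makes cohesin stable, had a CTCF peak with a match to the matrix near its start, centred at -353 bp in the CT list, -373 bp in that of KD and -407 bp in that of OE. STAG2, the alternative to STAG1, had a peak with a match in KD, centred at -1152 bp, and ESPL1, the separase that cuts RAD21, had a peak with a match in OE. HDAC8, the deacetylase of SMC3, had a peak without a match in unmasked KD, and the masked CT list also had a peak at its promoter. Peaks without a match lay at SMC4 in OE, among 8 condensin genes, and at NSMCE4A in KD, among 6 genes of the SMC5/6 complex, and none of 4 other looping factors had a peak. Of the 4 meiotic cohesin genes, H3K4me3 was at SMC1B, STAG3 and RAD21L1 and not at REC8, and RAD21L1 had a CTCF peak in CT centred 893 bp past its start. Among these genes CTCFL and REC8 were thus the germ line genes without H3K4me3.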

How the data were processed

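ChIP-seq libraries of HEK-293T cells were mapped to hg38 with Bowtie2 and peaks were called per library with MACS2 by the authors, who deposited positions without heights or read numbers. The deposited starts and ends are in bp. Starts were read as counted from 1, since the narrowest unmasked CTCF peaks then have the stated minimum length of 200 bp; if other lists count from 0, positions and widths move by 1 bp. The 6 lists of peaks exclusive to a condition were not used. Overlap meant at least 1 shared bp. Genes came from GENCODE release 44, sequences from hg38 and RefSeq (GRCh38.p14). Python 3.11.15, numpy 2.4.6, scipy 1.17.1, pysam 0.24.0 and samtools 1.23.1 were used, and the overlap, matrix and repeat steps were tested on simulated data. No tests between conditions were made. The members and lists were chosen with earlier results of these data known. Named were all members, the meiotic genes, related genes with a promoter peak of unmasked CTCF, the 3 promoters most like that of CTCF, and sites at promoters, in all 3 unmasked lists, or with both a match and a change between conditions; others are said to be chosen later. Of the sites this rule names, 2 in STAG1 are not reported here. Alternatives were the promoter and window size, all annotated starts, leaving out peaks that overlap input, the widest 20000 peaks, overlap of 50% of both peaks, stricter matrix thresholds, a consensus with 1 mismatch, and a repeat minimum of 100.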

Additional observations from a re-analysis of the deposited data

How the results depend on the processing

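Of 134 values computed under the alternatives for 29 counts and shares, 108 stayed within 1.5 times the count or within the interval of the share, and 26 did not. The number of members with a CTCF promoter peak (CT 2, KD 1, OE 1) became 5, 5 and 4 with any annotated start, 4 in KD and 2 in OE with 2000 bp on both sides, and 0 in CT and 0 in OE with the widest 20000 peaks. With those peaks the windows held 9, 11 and 13 CTCF peaks, the shared shares were 33.3% (CT in KD), 33.3% (CT in OE), 27.3% (KD in CT), 23.1% (OE in CT), 54.5% (KD in OE) and 46.2% (OE in KD), and the share with a match was 100% in OE. With no flank the windows held 18 CTCF peaks in KD, 14 masked CTCF peaks in CT and 26 H3K4me3 peaks in CT. With the consensus matches were under 36% of CT peaks and 46.4% each of KD and OE peaks. With a repeat minimum of 100 the repeated bases were 11.8%, 4.28% and 6.82%, outside intervals of 12.9 to 14.5, 4.8 to 5.78 and 6.9 to 8.06 that were taken over single bases and are too narrow, since bases of a peak are not independent. Fewer peaks or a smaller window account for the lower counts by construction, and the cause of the other shifts was not tested. Read numbers behind the peaks were not known, so weak and strong peaks weigh alike, and 1 library per condition leaves the spread between cultures unmeasured. By the paper's account the libraries also differed in their total of mapped reads, and the peak counts were not adjusted for this.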

Other observations

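H3K4me3 peaks away from the start sites were also present. STAG1 had 7 H3K4me3 peaks in its window in CT and 12 in KD, and NIPBL had 8 and 5. At STAG1 the peaks held by both conditions were those beside the start, a peak in wholly or almost wholly repeated DNA 267.4 kb into the gene in CT and 267.5 kb in KD, and a stretch near the gene's end. In that stretch the CT peak (136343625 to 136343869) and the KD peak (136343859 to 136344207) overlapped only at their edges. In NIPBL a peak 73.86 kb from the start in CT and 74.05 kb in KD, 937 and 848 bp wide, was the broadest one held by both away from the start. In PDS5B, peaks of 301 bp in CT and 193 bp in KD lay at the CTCF site 53.13 kb from the start.

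The promoters of the 9 genes with H3K4me3 had 103 to 227 CpG dinucleotides in 2001 bp, and that of CTCFL had 62, where the median was 114 over genes with H3K4me3 in CT and 32 over those without it.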
